A study of Homo sapiens with 12 samples.

Results

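The measurement described here is the difference between 2 Ewing sarcoma cell lines, TC32 and SKNMC, in how their transcripts respond to NU7441. For each gene it is the response of TC32 (NU7441 minus vehicle) minus the response of SKNMC, on normalized log2 intensities. All 12 of the 12 arrays of the series enter it. Of 47319 probes, 21753 had a detection p-value under 0.05 on at least 3 arrays and were kept, and the brightest such probe with 1 gene symbol stood for each of 12171 genes. A positive difference means a larger rise, or a smaller fall, in TC32 than in SKNMC, and a negative difference the reverse.

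In each line the vehicle group (0.1% (v/v) DMSO) and the NU7441 group (40 µM) had 3 arrays apiece, with RNA taken at 48 h. All groups share the growth medium, the time and the array type, and the dose was the same in both lines. Since the labels do not call the replicates separate cultures, p-values measure only how far these samples spread, possibly for technical reasons. The titles of the 6 vehicle samples end in "(2)", unlike those of the NU7441 samples. The labels do not explain the mark, and a separate run of the vehicle samples cannot be told apart from the treatment. That mark is alike in both lines. Whether a separate run would act equally in both lines, and so cancel in the difference, was not tested.

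NU7441 is a small molecule made to block DNA-PK, a kinase that takes part in the joining of broken DNA ends. The catalytic subunit of DNA-PK is the product of PRKDC. At high concentrations NU7441 is also known to act on related kinases such as PI3K and mTOR. Ewing sarcoma is driven by an abnormal transcription factor, the product of EWSR1 joined to an ETS family gene that is usually FLI1. Sterol synthesis, which takes up much of the results, is under feedback control: when membrane sterol is low, the transcription factor SREBP2 is cut free and turns on the enzymes of the mevalonate and sterol pathways, and when oxysterols are high, the nuclear receptor LXR turns on genes that export sterol, such as ABCA1. INSIG1, itself an SREBP target, holds SREBP back.

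The arrays had a mean raw intensity of 158.2 to 199.5 and 17944 to 20148 probes detected on each. The TC32 NU7441 arrays (158.2 to 184.2) all lay below the TC32 vehicle arrays (196.7 to 199.5), while the SKNMC groups overlapped. Without normalization between arrays the median TC32 response was -0.25, and the part of this gap in the difference was not tested. The NU7441 arrays did not all resemble the others of their group. The probe for 28S ribosomal RNA (RNA28SN5) read a normalized log2 intensity of 4.33 on SKNMC NU7441 replicate 1 and 12.33 and 12.42 on replicates 2 and 3, and it read 8.26, 9.33 and 12.69 on the TC32 NU7441 arrays, against 4.17 to 5.13 on the 6 vehicle arrays. SKNMC NU7441 replicate 1 correlated with replicates 2 and 3 at 0.959 and 0.958 across genes, while those correlated at 0.993 with each other. TC32 NU7441 replicate 3 correlated with its group at 0.966 and 0.967. Relative to the mean of the SKNMC vehicle arrays, 57 genes lay at least 4-fold away on replicate 1, 246 on replicate 2 and 255 on replicate 3. A set chosen after the values were seen shows the split: 8 genes (CES1, ALDH1A1, CES1P1, CEACAM6, OTX2, CXCR4, ADGRG2 and DLX5) were at a log2 of 8 or more on every TC32 array and were detected on every SKNMC vehicle array and on NU7441 replicate 1, but on neither NU7441 replicate 2 nor 3. Their median was 8.08 on SKNMC NU7441 replicate 1 and 4.21 and 4.23 on replicates 2 and 3. None of the 8 passed the test of the difference with all arrays, and all 8 did without replicate 1 (0 and 8 genes). CES1, a carboxylesterase, read 11.96, 4.21 and 4.37 on those 3 arrays. Over the genes that differed between the lines under vehicle, a scale was set with the SKNMC vehicle mean at 0 and the TC32 vehicle mean at 1. The vehicle arrays lie near their own ends of it by construction. The NU7441 arrays also lay at their own line, at 0.92 to 0.98 in TC32 and -0.14 to 0.04 in SKNMC. Each of 10 Ewing sarcoma markers, FLI1 and NKX2-2 among them, was detected on at least 1 array of every group, with PAX7 on 1 of 3 TC32 NU7441 arrays and LIPI on 1 of 3 SKNMC NU7441 arrays. Which of these arrays stand for the treatment was not tested, and results are therefore given with all arrays, and counts of calls and calls that change also in 2 refits. One leaves out the NU7441 arrays of high 28S signal (SKNMC replicates 2 and 3 and TC32 replicate 3), the other leaves out SKNMC NU7441 replicate 1.

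**Figure D1:**
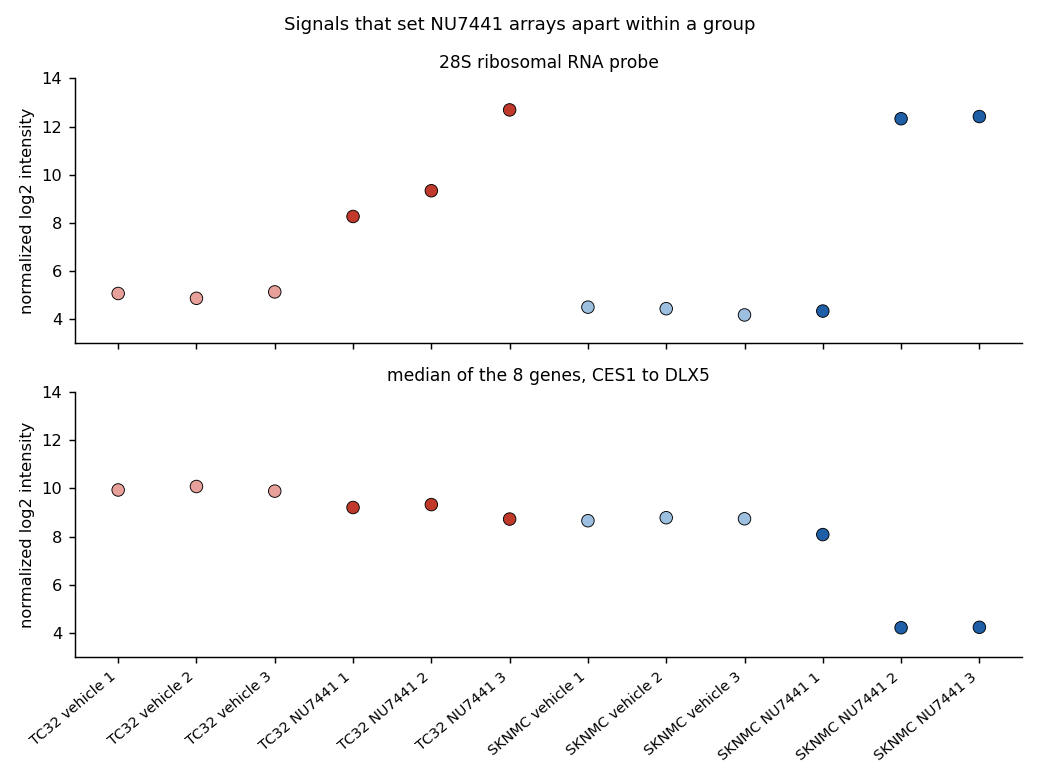
Normalized log2 intensity of the 28S ribosomal RNA probe (top) and the median of the 8 genes CES1, ALDH1A1, CES1P1, CEACAM6, OTX2, CXCR4, ADGRG2 and DLX5 (bottom) on each of the 12 arrays, 1 point an array. SKNMC NU7441 replicates 2 and 3 lie at 12.33 and 12.42 for 28S and at 4.21 and 4.23 for the 8 genes, away from replicate 1.

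With all arrays, 225 of 12171 genes differed in response between the lines (1.85% of genes tested), called at a limma adjusted p under 0.05 and a difference of at least 1 on the log2 scale. Of these, 161 (1.32%) were higher in TC32 than in SKNMC and 64 (0.526%) were lower. The same rule called 788 genes (6.47%) in TC32 by itself, 312 higher (2.56%) and 476 lower (3.91%), and 1105 (9.08%) in SKNMC by itself, 419 higher (3.44%) and 686 lower (5.64%). In the difference, 2121 genes had an unadjusted p under 0.05. On the array level the 3 TC32 responses and the 3 SKNMC responses did not overlap for any of the 225 genes (225 of 225), a separation that 27.6% of all genes show. The call rests on the same values, so this separation is no independent support for it.

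The called genes of each sign moved in different lines. Among the 161 genes with the positive sign, 88 fell in SKNMC and 42 rose in TC32, while 7 fell in TC32 and 6 rose in SKNMC. Among the 64 with the negative sign, 29 fell in TC32 and 18 rose in SKNMC, while 6 fell in SKNMC and 0 rose in TC32. Seen by line, 97 of the 225 were called in SKNMC only, 57 in TC32 only, 19 in both lines in the same direction, 2 in both in opposite directions and 50 in neither line. Over all 12171 genes the 2 responses had a Pearson correlation of 0.686 and a Spearman correlation of 0.644, a description across genes, which are not replicates, of 2 sets of arrays that share no sample. Of 1495 genes called in either line 398 were called in both, 396 of them in the same direction. Of the 1495, 175 passed the test of the difference.

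**Figure D2:**
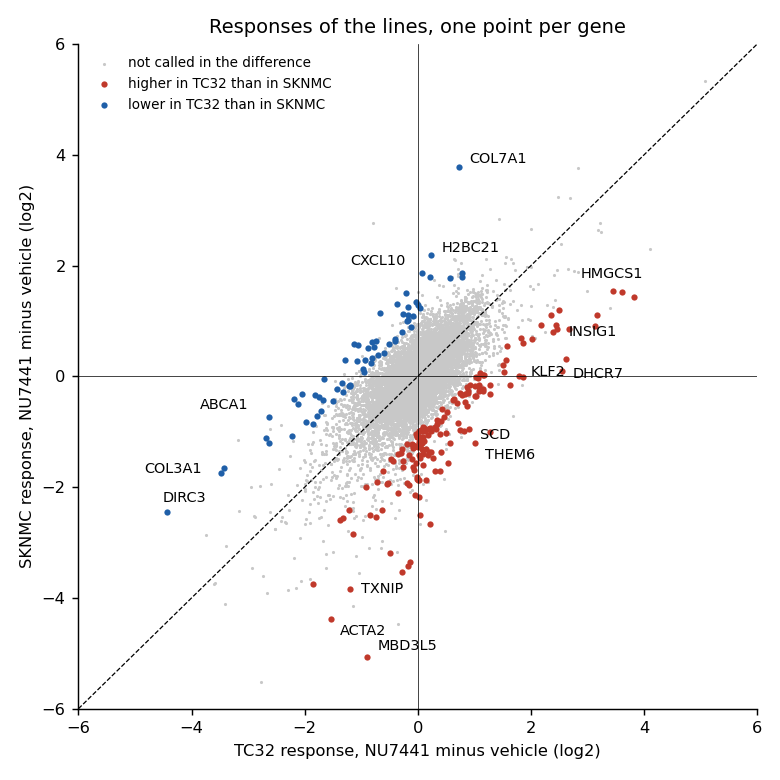
Response to NU7441 in TC32 (x axis) against SKNMC (y axis), log2 of NU7441 over vehicle, 1 point for each of 12171 genes, with the dashed line marking equal responses. The 161 genes higher in TC32 lie under the line, many with a fall in SKNMC and little movement in TC32, and the 64 lower in TC32 lie above it.

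Detection limits part of this. Of the 225 genes, 122 were detected on all 12 arrays (54.2%, against 67% of all genes tested), and 59 had at least 1 group with no detected array. For 29 of the 225 the gene was not detected on any TC32 vehicle array, so TC32 had no measured level to lose, and for 3 it was not detected on any SKNMC vehicle array. A difference for such a gene says where a level changed, and its size rests on the background of the other line.

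The call also depends on the arrays. Refitted without the NU7441 arrays of high 28S signal, 384 genes were called (3.16%), 223 higher (1.83%) and 161 lower (1.32%). Without SKNMC NU7441 replicate 1 the count was 778 (6.39%), 523 higher (4.3%) and 255 lower (2.1%). Without SKNMC NU7441 replicates 2 and 3 it was 101 (0.83%), 68 higher (0.559%) and 33 lower (0.271%). On leaving out single arrays the count ran from 98, without SKNMC vehicle replicate 2, to that 778. All 225 genes kept their sign in both refits, and 142 (1.17%) were called in all 3 fits, 107 higher (0.879%) and 35 lower (0.288%); the 3 fits share arrays, and this count was chosen after the values were seen. The kept signs were fixed in advance, since the refits drop only NU7441 arrays and the array responses did not overlap. In each fit without SKNMC NU7441 replicates 2 and 3, that group keeps only replicate 1. Its p-values rest on the spread of the other groups, and 1 of the 3 fits is of this kind. Refit counts of list members further on stand against the shares of the same refit given here. Scaling matters for the balance of signs. Without normalization between arrays the median difference over all genes moved from 0.00 to -0.19, and with scaling by array medians to -0.16, and the share of calls that were higher in TC32 moved from 71.6% to 24.3% and 28.4%. All 225 genes kept their sign under both scalings, 138 and 142 kept their call, and the 64 lower genes all kept it (64 and 64). The typical gene moved down, by less than the fold minimum, so the kept signs and kept lower calls do not show firmer calls. Which balance of signs is right was not tested, and directions are given here relative to the typical gene.

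**Figure D3:**
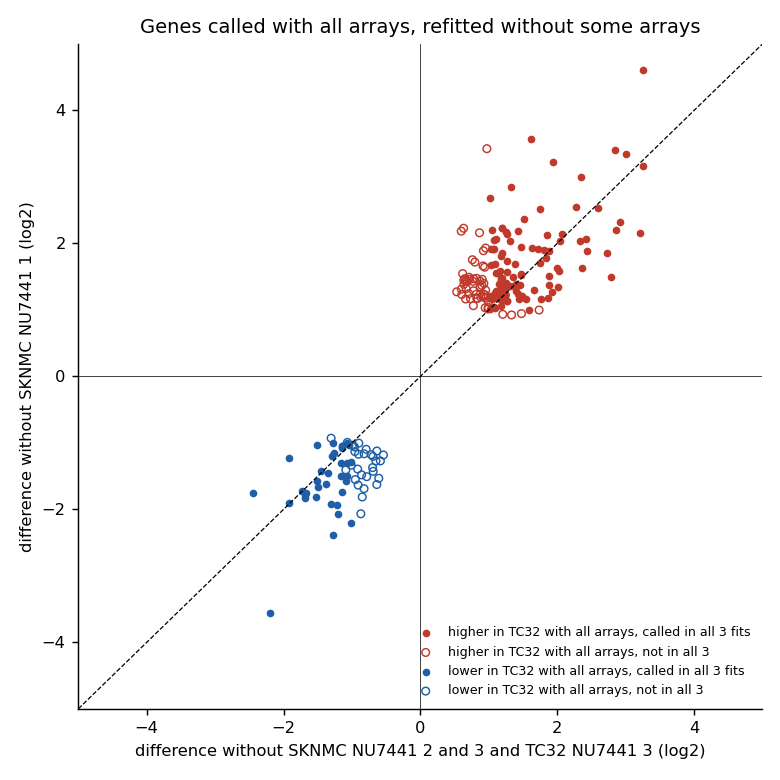
Difference of responses (log2) for the 225 genes called with all arrays, refitted without SKNMC NU7441 replicates 2 and 3 and TC32 NU7441 replicate 3 (x axis) and without SKNMC NU7441 replicate 1 (y axis), with filled points for the 142 genes called in all 3 fits. All 225 points lie in the quadrants of their own sign, which follows from array responses that do not overlap.

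Some enzymes of sterol synthesis rose more in TC32 than in SKNMC. Of 28 measured genes on the lists of the mevalonate pathway, late sterol synthesis and sterol sensing and uptake, 8 were higher in the difference and 0 lower, against 1.32% and 0.526% of all genes, and 7 of the 8 were called in all 3 fits. Each refit also called 8 higher and 0 lower, and under each of the 2 other scalings 5 of the 28 were called, ACAT2 not among them. The median difference of the 28 genes was 0.53, against 0.00 for all genes tested, and their median response was 0.93 in TC32 and 0.37 in SKNMC. By itself TC32 had 13 of the 28 genes called higher and 1 lower, and SKNMC had 7 higher and 1 lower. Of all genes 2.56% were higher and 3.91% lower in TC32, and 3.44% higher and 5.64% lower in SKNMC. Under those scalings the median difference stood at 0.34 and 0.37, where the median of all genes stood at -0.19 and -0.16.

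HMGCS1, the synthase that makes HMG-CoA at the entry of the mevalonate pathway, read 6.45, 6.75 and 6.67 on the TC32 vehicle arrays and 10.12, 9.92 and 10.19 with NU7441. In SKNMC it read 7.93, 7.98 and 7.91 with vehicle and 9.45, 9.46 and 9.55 with NU7441. Every NU7441 array lay above every vehicle array of its line, and TC32 went from below SKNMC to above it. It rose by 3.45 in TC32 and by 1.55 in SKNMC, a difference of 1.90 ± 0.18 (SE, adjusted p = 9.3e-05).

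DHCR7, which carries out the last step of cholesterol synthesis, showed a change in 1 line. Its TC32 arrays read 5.38, 5.37 and 6.31 with vehicle and 8.38, 8.12 and 8.18 with NU7441, and its SKNMC arrays 7.26, 7.19 and 7.15 with vehicle and 7.49, 7.15 and 7.24 with NU7441. The SKNMC groups overlapped and the TC32 groups did not. DHCR7 rose by 2.54 in TC32 and stood at 0.09 in SKNMC (adjusted p = 0.774), a difference of 2.45 ± 0.30 (adjusted p = 0.000913).

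INSIG1 read 6.54, 6.38 and 7.03 in TC32 with vehicle and 9.98, 10.11 and 9.39 with NU7441, and 7.48, 7.36 and 7.57 in SKNMC with vehicle and 8.53, 8.44 and 8.77 with NU7441. Both lines rose on every array, TC32 by 3.18 and SKNMC by 1.11, and the difference was 2.06 ± 0.29 (adjusted p = 0.00208). The isomerase IDI1 rose by 2.39 in TC32 and stood at 0.80 in SKNMC, under the fold minimum, with a difference of 1.58 ± 0.23 (adjusted p = 0.00249). MSMO1, a sterol demethylase, differed by 1.51 ± 0.27 (adjusted p = 0.0106), with a rise of 2.44 in TC32 and a value of 0.94 in SKNMC. ACAT2, which joins acetyl-CoA units, differed by 1.59 ± 0.27 (adjusted p = 0.00759), with a rise of 1.28 in TC32 and -0.31 in SKNMC. None of these 6 genes lost its call on leaving out any of the 12 single arrays. MSMO1 and ACAT2 were not called when the detected probes of a gene were averaged. EBP and NSDHL, enzymes of the late steps, differed by 1.16 and 1.08, but EBP lost its call on leaving out any of 10 single arrays (1.00 to 1.45, adjusted p up to 0.121) and was not called without the high 28S arrays (0.64), and NSDHL lost its call on leaving out any of 6 (0.98 to 1.22, adjusted p up to 0.0654).

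For 20 of the 28 genes the difference was not called. The next 4 were picked after their values were seen. The synthase LSS was at 2.04 in TC32 and 1.59 in SKNMC, with a difference of 0.46 (adjusted p = 0.474), and MVD, the decarboxylase of the mevalonate pathway, was at 1.51 and 1.09 with a difference of 0.42 (adjusted p = 0.447). SREBF2, which encodes SREBP2 itself, was at 0.12 and 0.16 (difference -0.04, adjusted p = 0.947). SCARB1, a lipoprotein receptor, passed the adjusted p (0.0485) and not the fold minimum, at 0.89. On the sensing and uptake list 1 of 10 genes was called (1.85% of all genes), and its median difference of 0.16 turned to -0.09 and -0.06 under the other scalings.

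Promoters of 4 lipid genes called higher in the difference are shown, although their responses in SKNMC were unlike; they are RefSeq sequences of GRCh38.p14, from 250 bases before to 50 bases after the start site, written 5′ to 3′ on the gene's strand. Capitals mark CCAAT, the core letters of the box that the factor NF-Y binds, or ATTGG, the same letters on the other strand. The windows are chr11:71448344-71448643 (minus strand) for DHCR7, chr7:155297628-155297927 (plus strand) for INSIG1, chr5:43313363-43313662 (minus strand) for HMGCS1 and chr10:100346983-100347282 (plus strand) for SCD, the desaturase described next. Where a gene had several entries the first one that holds the letters was taken.
DHCR7: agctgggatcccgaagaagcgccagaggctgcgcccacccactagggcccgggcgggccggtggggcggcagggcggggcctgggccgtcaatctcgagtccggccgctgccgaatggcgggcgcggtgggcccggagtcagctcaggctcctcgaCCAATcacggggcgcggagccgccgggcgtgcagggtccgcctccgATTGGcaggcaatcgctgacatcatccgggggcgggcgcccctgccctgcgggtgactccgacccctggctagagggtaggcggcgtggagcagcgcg
INSIG1: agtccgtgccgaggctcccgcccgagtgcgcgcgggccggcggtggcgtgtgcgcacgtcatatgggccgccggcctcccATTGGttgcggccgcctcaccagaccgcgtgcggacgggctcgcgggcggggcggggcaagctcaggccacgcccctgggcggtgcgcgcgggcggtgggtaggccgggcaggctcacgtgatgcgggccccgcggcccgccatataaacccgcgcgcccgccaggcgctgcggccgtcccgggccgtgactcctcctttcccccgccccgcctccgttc
HMGCS1: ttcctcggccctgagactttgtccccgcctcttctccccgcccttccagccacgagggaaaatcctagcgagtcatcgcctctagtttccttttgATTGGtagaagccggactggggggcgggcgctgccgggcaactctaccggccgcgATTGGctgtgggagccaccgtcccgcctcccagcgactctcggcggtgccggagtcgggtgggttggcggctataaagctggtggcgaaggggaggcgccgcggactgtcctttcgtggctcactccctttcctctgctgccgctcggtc
SCD: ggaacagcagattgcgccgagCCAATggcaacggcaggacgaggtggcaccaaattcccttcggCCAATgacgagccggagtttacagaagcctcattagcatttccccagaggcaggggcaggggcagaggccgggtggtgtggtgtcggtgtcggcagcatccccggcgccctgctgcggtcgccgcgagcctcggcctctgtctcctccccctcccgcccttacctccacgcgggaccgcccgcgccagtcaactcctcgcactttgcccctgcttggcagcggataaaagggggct
All 7 of the 7 called sterol genes with an entry held CCAAT on either strand, as did 10 of the 18 sterol genes with an entry that were not called. Of all 35116 promoters of this length 34.6% held it, and of the 9677 genes tested that have an entry 43.9% held it in at least 1 promoter. The letters TCACNCCAC, a form of the sterol regulatory element that SREBP binds, were in none of the 7 windows (0 of 7) and in 1.13% of all promoters. A match describes these letters only.

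A pair of genes for fatty acid desaturation and elongation were called as well. SCD, which puts the double bond into saturated fatty acids, read 9.46, 9.28 and 10.01 in TC32 with vehicle and 10.57, 10.40 and 10.53 with NU7441. In SKNMC it read 10.76, 10.74 and 10.78 with vehicle and 9.93, 9.84 and 9.68 with NU7441. All TC32 arrays lay higher with NU7441 and all SKNMC arrays lower, with no overlap in either line. The responses were 0.91 and -0.94, each under the fold minimum, and the difference of 1.86 ± 0.24 passed (adjusted p = 0.00103). ELOVL6, which lengthens fatty acids, was at -0.26 in TC32 and fell by 1.52 in SKNMC, detected there on 1 of 3 NU7441 arrays. Its difference was 1.26 ± 0.23 (adjusted p = 0.00989). It was not called without background correction, with the submitters' own log2 values or with its detected probes averaged. On the list of 11 measured genes 2 were higher and 0 lower (1.32% and 0.526% of all genes), with 4 higher without SKNMC NU7441 replicate 1 and a median difference of 0.70 (0.31 and 0.33 under the other scalings). FADS2, a desaturase of polyunsaturated fatty acids, and FASN, the fatty acid synthase, also picked after their values were seen, had differences of 1.55 and 1.26 that did not pass (adjusted p = 0.0717 and 0.069).

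A pair of LXR targets had the other sign. ABCA1, the pump that hands cholesterol to apolipoproteins, read 6.98, 7.07 and 6.73 in TC32 with vehicle and was not detected with NU7441, at least 5.46-fold lower. In SKNMC it started low, at 4.79, 4.74 and 5.11, and was not detected with NU7441 either, at least 1.33-fold lower. The difference was -1.91 ± 0.20 (adjusted p = 0.000162), with both lines ending at background and TC32 having started higher. ABCA1 was not called without background correction or with the submitters' own log2 values. MYLIP, an LXR target that marks the LDL receptor for breakdown, was detected on all 12 arrays. It fell by 1.19 in TC32 and stood at -0.15 in SKNMC, a difference of -1.04 ± 0.22 (adjusted p = 0.0273) that did not survive the omission of any of 9 single arrays (-1.16 to -0.90, adjusted p up to 0.0867) and in the refit without the high 28S arrays (-0.79). Of 7 measured genes on the list of LXR targets and sterol efflux, 0 were higher and 2 lower (1.32% and 0.526% of all genes), with a median difference of -0.33.

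**Figure D4:**
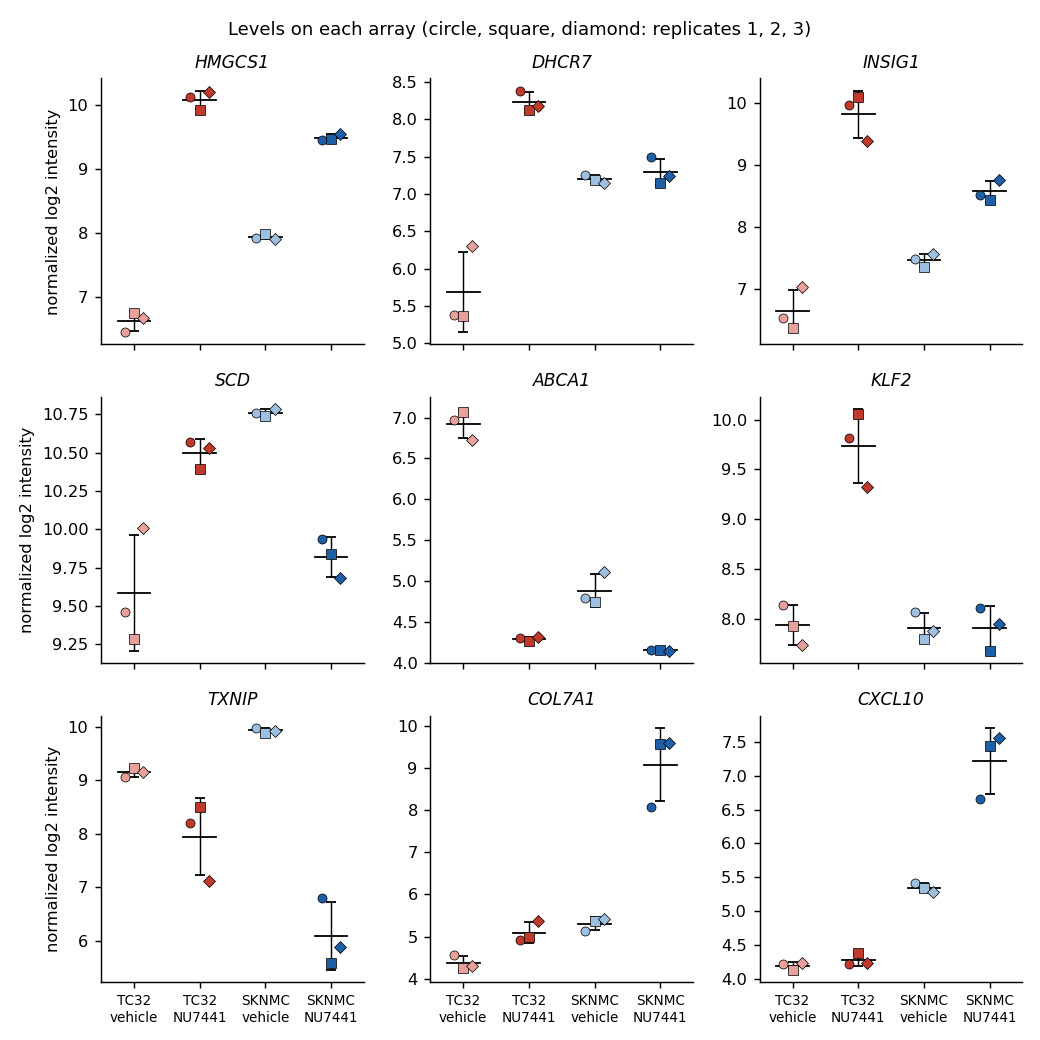
Normalized log2 intensity of 9 genes on each array, by group, with circle, square and diamond for replicates 1, 2 and 3, the horizontal line for the group mean and the bar for its SD (n = 3). HMGCS1, DHCR7 and INSIG1 start lower in TC32 and end higher, SCD moves in opposite directions, and COL7A1 and CXCL10 rise in SKNMC, least on replicate 1.

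Only 2 genes were called in opposite directions in the lines and in the difference. THEM6, a protein of the thioesterase superfamily, read 7.85, 8.07 and 8.07 in TC32 with vehicle and 9.01, 9.32 and 8.66 with NU7441, and 8.53, 8.46 and 8.34 in SKNMC with vehicle and 7.86, 7.01 and 6.84 with NU7441. It rose by 1.00 and fell by 1.20, with no overlap in either line, and differed by 2.21 ± 0.33 (adjusted p = 0.0031) without losing its call on leaving out any single array. HSPA12A, a distant member of the HSP70 family, rose by 1.28 in TC32 and fell by 1.00 in SKNMC. Its SKNMC NU7441 arrays read 6.10, 4.29 and 4.51 against 5.91 to 6.01 with vehicle, so the fall stands on replicates 2 and 3. The difference of 2.28 ± 0.50 (adjusted p = 0.0294) lost its call on leaving out any of 10 single arrays (1.94 to 2.84, adjusted p up to 0.0867).

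The 5 most positive called differences, MBD3L2 to MBD3L5 and BTBD17, were of genes that fell in SKNMC and had little or no signal in TC32. MBD3L2, MBD3L3, MBD3L4 and MBD3L5 are near-identical neighbours of a gene family on chromosome 19 that resembles the methyl-CpG-binding factor MBD3, and their probes may share signal. MBD3L5 read 10.47, 10.49 and 10.36 in SKNMC with vehicle and 6.28, 4.99 and 4.86 with NU7441. In TC32 it read 4.34, 4.57 and 6.80 with vehicle, where replicate 3 stood apart, and 4.29 to 4.37 with NU7441, where no array detected it. The difference was 4.15 ± 0.70 (adjusted p = 0.0068), and it stood at 3.25 in the refit without the high 28S arrays and at 4.61 without SKNMC NU7441 replicate 1. MBD3L2 read 7.87, 8.16 and 7.95 in SKNMC with vehicle and 4.56, 4.65 and 4.72 with NU7441, with every TC32 array at 4.16 to 4.62. It differed by 3.21 ± 0.20 (adjusted p = 2.83e-06), and MBD3L3 and MBD3L4 by 3.25 and 3.24. The 4 genes kept their calls without any single array.

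The family's promoters are nearly the same sequence, which is why they are printed. They are RefSeq windows of GRCh38.p14 at chr19:7030328-7030627 (plus strand) for MBD3L5 and chr19:7049071-7049370 (plus strand) for MBD3L2, 250 bases before to 50 after the start site, with TATAAA, the letters of a TATA box, in capitals.
MBD3L5: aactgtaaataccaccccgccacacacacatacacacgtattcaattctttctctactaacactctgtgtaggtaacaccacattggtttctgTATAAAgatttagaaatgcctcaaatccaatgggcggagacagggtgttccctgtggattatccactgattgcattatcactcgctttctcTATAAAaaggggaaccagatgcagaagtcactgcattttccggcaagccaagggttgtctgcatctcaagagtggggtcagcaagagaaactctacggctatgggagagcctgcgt
MBD3L2: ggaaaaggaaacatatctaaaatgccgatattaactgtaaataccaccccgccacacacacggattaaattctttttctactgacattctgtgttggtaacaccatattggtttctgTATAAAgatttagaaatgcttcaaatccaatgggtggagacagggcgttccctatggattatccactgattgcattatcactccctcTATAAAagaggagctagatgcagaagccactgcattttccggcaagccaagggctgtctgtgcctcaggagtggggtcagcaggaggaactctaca
These windows were 87.1% identical over 280 aligned bases, and those of MBD3L4 and MBD3L5 were 100% identical over 299. TATAAA on either strand was present in all 4 of the 4 promoters and in 11.5% of all promoters. The match of these letters does not show that a factor binds there.

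Other genes of this kind kept to SKNMC. TRIM51, of the tripartite motif family, read 6.80, 6.99 and 6.75 there with vehicle and was not detected with NU7441, at least 5.20-fold lower, while no TC32 array detected it. Its difference was 2.55 ± 0.18 (adjusted p = 5.09e-06). BTBD17 read 7.88, 7.75 and 7.54 in SKNMC with vehicle and 5.76, 4.41 and 5.04 with NU7441 against 4.13 to 4.93 in TC32 (difference 2.88 ± 0.39, adjusted p = 0.00182). LUM and DCN, small proteoglycans of the matrix that bind collagen, were not detected on any TC32 array. LUM fell in SKNMC from 6.72, 6.71 and 6.69 to 4.28, 4.42 and 4.90, and DCN from 7.33, 7.46 and 7.20 to 5.40, 5.80 and 5.71. Their differences were 2.20 ± 0.21 (adjusted p = 9.3e-05) and 1.63 ± 0.19 (adjusted p = 0.000731). DCN was not called without background correction, with the submitters' own log2 values or with its detected probes averaged. CCND2, a D-type cyclin, fell by 1.38 in SKNMC from 9.77, 9.76 and 9.79 to 8.47, 8.40 and 8.30 and was near background in TC32, and its difference of 1.08 ± 0.23 (adjusted p = 0.0267) was lost without any of 9 single arrays (0.97 to 1.30, adjusted p up to 0.081) and without the high 28S arrays (0.995).

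Both called contractile genes were actins that fell more in SKNMC. ACTA2, smooth muscle actin, read 8.95, 8.92 and 8.96 in TC32 with vehicle and 7.37, 7.86 and 6.999 with NU7441, and 9.47, 9.35 and 9.40 in SKNMC with vehicle and 6.47, 4.40 and 4.21 with NU7441, where replicates 2 and 3 did not detect it. It fell by 1.53 and 4.38, and the difference of 2.85 ± 0.60 (adjusted p = 0.0244) did not survive the omission of any of 9 single arrays (2.44 to 3.57, adjusted p up to 0.0756). Its value was 1.61 without the high 28S arrays and 3.57 without SKNMC NU7441 replicate 1. ACTG2, the enteric smooth muscle actin, fell by 2.11 in SKNMC, from 7.67, 7.69 and 7.52 to 5.24, 5.57 and 5.73, and was detected on 1 TC32 vehicle array and no TC32 NU7441 array. Its difference was 1.77 ± 0.22 (adjusted p = 0.00101). Of 10 measured contractile genes 2 were higher and 0 lower (1.32% and 0.526% of all genes), with 6 higher without SKNMC NU7441 replicate 1. The median difference of 1.10 was 0.53 without the high 28S arrays and 1.43 without SKNMC NU7441 replicate 1. Under the other scalings it stood at 0.73 and 0.76, and 1 gene was called under each, which was not ACTA2. In SKNMC by itself 8 of the 10 fell, and in TC32 2 did (5.64% and 3.91% of all genes).

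As bulk samples, the arrays cannot tell fewer cells of a kind from less RNA per cell. Among fibroblast markers, which share ACTA2, LUM, DCN and COL3A1 with the groups described here, 12 of 13 were measured, 7 were detected in TC32 and 12 in SKNMC with vehicle. Their summed level was 10.72 to 10.83 in TC32 with vehicle and 9.29 to 9.76 with NU7441, and 11.15 to 11.26 and 9.41 to 10.13 in SKNMC, with 10.13 on NU7441 replicate 1. Of these, 3 were higher and 1 lower in the difference (1.32% and 0.526% of all genes). Among epithelial markers 4 of 9 were measured and 0 were called, and among haematopoietic markers 4 of 11 were measured and 0 called. ITGB2, an integrin subunit of leukocytes, read 10.68, 5.47 and 5.50 on the SKNMC NU7441 arrays and 10.85 to 12.01 on the vehicle arrays of both lines, and its difference of 3.40 did not pass (adjusted p = 0.199). CD68, a macrophage marker, went the other way, from 6.42, 6.53 and 6.44 to 7.51, 7.88 and 8.39 in SKNMC, with a difference of -0.44 (adjusted p = 0.626), and the median of the 4 was -0.05. The part of these marker levels in the results was not tested.

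Among regulators with a positive difference, TXNIP, which restrains glucose uptake and responds to the factor MondoA, fell in both lines. It read 9.06, 9.23 and 9.16 in TC32 with vehicle and 8.21, 8.51 and 7.13 with NU7441, and 9.98, 9.89 and 9.92 in SKNMC with vehicle and 6.80, 5.60 and 5.89 with NU7441. It fell by 1.20 in TC32 and fell by 3.84 in SKNMC on the log2 scale, a difference of 2.64 ± 0.45 (adjusted p = 0.00694). Of 16 measured genes of the MondoA axis and glucose use, TXNIP was the 1 called (1.85% of all genes). Without SKNMC NU7441 replicate 1, 4 were called higher, and the median difference with all arrays was 0.39.

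KLF2, a Krüppel-like factor that FOXO proteins induce, rose in TC32 and was not called in SKNMC. It read 8.14, 7.93 and 7.74 with vehicle and 9.81, 10.06 and 9.33 with NU7441, while in SKNMC the groups overlapped, at 8.07, 7.79 and 7.87 against 8.11, 7.67 and 7.94. The responses were 1.80 and 0.00 and the difference 1.80 ± 0.27 (adjusted p = 0.00317), held without any single array. On the list of PI3K, mTOR and FOXO feedback genes it was the 1 gene higher among 23 (1.32% of all genes). CCNG2, a cyclin induced by FOXO, was the 1 lower (0.526% of all genes), at -1.07 ± 0.22 (adjusted p = 0.0203). Its call was lost without any of 6 single arrays (-1.16 to -0.92, adjusted p up to 0.0753) and without the high 28S arrays (-0.96). CDKN1A, which encodes the cell cycle inhibitor p21, rose by 1.86 in TC32 and stood at 0.61 in SKNMC. The difference of 1.25 ± 0.30 (adjusted p = 0.0469) did not survive the omission of any of 10 single arrays (1.02 to 1.45, adjusted p up to 0.127). CDKN1C, another inhibitor of cyclin-dependent kinases, had a difference of -1.07 ± 0.24 (adjusted p = 0.033) and lost its call without any of 9 single arrays (-1.27 to -0.94, adjusted p up to 0.0995) and without the high 28S arrays (-0.59).

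Some amino acid stress genes passed the test of the difference. On the list of ATF4 targets, which respond to amino acid shortage, 26 of 33 measured genes fell in TC32 and 24 in SKNMC. Of all genes 3.91% and 5.64% fell, and the median responses of the list were -1.55 and -1.65. In the difference 2 ATF4 targets were higher and 1 lower (1.32% and 0.526% of all genes). Without the high 28S arrays 2 were higher and 2 lower, and without SKNMC NU7441 replicate 1 there were 4 and 4. SLC1A4, a transporter of neutral amino acids, read 6.38, 6.16 and 6.01 in TC32 with vehicle and 6.95, 6.99 and 7.07 with NU7441, against 6.18, 6.33 and 6.41 and then 5.79, 5.01 and 5.17 in SKNMC. Both lines were free of overlap, in opposite directions, with responses of 0.82 and -0.98 under the fold minimum and a difference of 1.80 ± 0.26 (adjusted p = 0.0024). SLC1A4 was not called without background correction or with the submitters' own log2 values. SLC7A1, the carrier of cationic amino acids, fell by 1.37 and 2.58, a difference of 1.21 ± 0.24 (adjusted p = 0.0167) that was lost without any of 4 single arrays (1.06 to 1.35, adjusted p up to 0.0652). GDF15, a stress-induced cytokine, read 6.40, 6.66 and 6.09 in TC32 with vehicle and 4.53, 4.91 and 4.80 in SKNMC, and was detected on no NU7441 array of either line. It was at least 3.74-fold lower in TC32 and at least 1.21-fold lower in SKNMC, and its difference of -1.78 ± 0.22 (adjusted p = 0.000951) goes with the higher starting level in TC32. DNAJB9, an ER chaperone partner, fell by 1.08 in TC32 and stood at 0.28 in SKNMC, a difference of -1.36 ± 0.25 (adjusted p = 0.0107), and stood at -0.95 and was not called without the high 28S arrays. It was the 1 gene called among 15 chaperone and unfolded protein response genes (1.85% of all genes).

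The most negative called difference was that of COL7A1, the anchoring collagen of the basement membrane. It read 4.55, 4.26 and 4.30 in TC32 with vehicle, detected on 1 of 3 arrays, and 4.93, 4.98 and 5.38 with NU7441. In SKNMC it read 5.14, 5.37 and 5.42 with vehicle and 8.09, 9.58 and 9.61 with NU7441. Every NU7441 array lay above every vehicle array of its line, and the SKNMC NU7441 arrays lay above all others. The responses were 0.72, which did not pass in TC32 (adjusted p = 0.103), and 3.79, and the difference was -3.06 ± 0.43 (adjusted p = 0.0024), with -2.20 and -3.57 in the refits.

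The 2 other collagens called fell in TC32. COL3A1, a fibrillar collagen, fell in both lines, from 9.11, 8.73 and 8.90 to 5.88, 5.22 and 5.35 in TC32 and from 7.72, 8.30 and 8.41 to 6.47, 6.60 and 6.40 in SKNMC. The fall was 3.43 against 1.65 and the difference -1.78 ± 0.29 (adjusted p = 0.0054). COL5A2 fell by 1.05 in TC32 and stood at 0.56 in SKNMC, a difference of -1.61 ± 0.35 (adjusted p = 0.0294) that was lost without any of 7 single arrays (-1.85 to -1.26, adjusted p up to 0.0862) and without the high 28S arrays (-0.85). On the list of 14 collagens 0 were higher and 3 lower (1.32% and 0.526% of all genes), with a median difference of -0.23. ECM1, an extracellular matrix protein, fell by 1.12 in TC32 and stood at 0.58 in SKNMC (difference -1.70 ± 0.33, adjusted p = 0.0157), and its call was lost without SKNMC vehicle replicate 1 or 2 (adjusted p up to 0.064).

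A few inflammatory genes rose in SKNMC. CXCL10, a chemokine induced by interferons and NF-kB, read 5.41, 5.34 and 5.28 in SKNMC with vehicle and 6.65, 7.44 and 7.56 with NU7441, while no TC32 array detected it. The rise of 1.87 gave a difference of -1.79 ± 0.27 (adjusted p = 0.00328), held without any single array. NFKB1, a subunit of NF-kB, rose from 7.68, 7.42 and 7.59 to 8.05, 9.20 and 9.34 in SKNMC and read 6.99 to 7.28 and 6.60 to 6.88 in the TC32 groups. Its difference was -1.66 ± 0.36 (adjusted p = 0.0293), was lost without any of 10 single arrays (-2.07 to -1.42, adjusted p up to 0.0992), and stood at -0.87, not called, without the high 28S arrays. TNFAIP3, an NF-kB target that dampens it, differed by -1.19 ± 0.27 (adjusted p = 0.0368), lost without any of 9 single arrays (adjusted p up to 0.109) and without the high 28S arrays (-0.69). Of 16 measured NF-kB and inflammatory genes, 0 were higher and 2 lower (1.32% and 0.526% of all genes), with a median difference of -0.18. The count lower was 1 without the high 28S arrays and 6 without SKNMC NU7441 replicate 1. CXCL8, a neutrophil chemokine, had the lowest difference of all genes at -3.55 and did not pass (adjusted p = 0.187), with 5.58, 9.30 and 9.57 on the SKNMC NU7441 arrays. In SKNMC by itself 6 rose and 1 fell (3.44% and 5.64% of all genes), and in TC32 1 rose and 1 fell (2.56% and 3.91%). SKNMC NU7441 replicates 2 and 3 exceeded replicate 1 for CXCL10, NFKB1 and TNFAIP3, which read 4.99 on replicate 1 and 5.80 and 5.59 on the others.

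Further SKNMC rises were H2BC21, SELENOP and CPEB2. H2BC21, a histone H2B gene whose transcript can be polyadenylated, read 4.85, 5.14 and 5.06 in SKNMC with vehicle and 6.35, 7.82 and 7.45 with NU7441, against 4.43 to 5.06 and 4.78 to 5.38 in TC32. Its difference of -1.95 ± 0.42 (adjusted p = 0.029) was lost without any of 9 single arrays (-2.38 to -1.65, adjusted p up to 0.0876). It was the 1 gene called among 47 replication-dependent histone genes (1.85% of all genes), where the median difference was -0.40. Of the 47, 12 rose in SKNMC and 1 in TC32 (3.44% and 2.56% of all genes). SELENOP, the plasma selenium carrier, rose in SKNMC from 7.14, 7.08 and 7.12 to 7.49, 8.64 and 8.67 and stood at -0.67 in TC32 (difference -1.82 ± 0.35, adjusted p = 0.0154), a call lost without TC32 vehicle replicate 2 or SKNMC vehicle replicate 2 (adjusted p up to 0.0547). CPEB2, which binds polyadenylation elements, rose from 6.50, 6.55 and 6.77 to 7.64, 8.34 and 8.34 in SKNMC and stood at -0.21 in TC32, a difference of -1.71 ± 0.32 (adjusted p = 0.0115).

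The deepest TC32 fall among the negative differences was DIRC3, a long non-coding RNA gene on chromosome 2. It read 8.89, 8.88 and 8.60 in TC32 with vehicle and 4.20, 4.49 and 4.36 with NU7441, detected on 1 of 3 arrays, and 7.60, 7.57 and 7.15 in SKNMC with vehicle and 5.44, 4.60 and 4.93 with NU7441. It fell by 4.44 and 2.46, a difference of -1.98 ± 0.28 (adjusted p = 0.0024). PDE7B, a phosphodiesterase that breaks down cyclic AMP, fell by 3.48 in TC32, from 7.61, 7.93 and 7.98 to 4.53, 4.37 and 4.19, and was not detected in SKNMC with NU7441, at least 2.85-fold below 5.90, 6.08 and 5.97. Its difference was -1.75 ± 0.22 (adjusted p = 0.000959). CEACAM1, an adhesion molecule, was at least 3.60-fold lower in TC32, from 6.50, 6.36 and 6.12 to background, and was at 4.32 to 4.54 in SKNMC with vehicle (difference -1.72 ± 0.20, adjusted p = 0.000511). In PDE7B and CEACAM1, as in ABCA1 and GDF15, SKNMC started lower. Like ABCA1, CEACAM1 and GDF15 were not called without background correction or with the submitters' own log2 values.

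Some small RNAs that guide RNA modification rose more in TC32. Of 94 measured box H/ACA and Cajal body RNAs, which direct pseudouridylation and the modification of small nuclear RNAs, 12 were higher in the difference and 0 lower (1.32% and 0.526% of all genes), and 9 of the 12 were called in all 3 fits. Their median difference was 0.51, with median responses of 0.90 in TC32 and 0.41 in SKNMC, and 79 of the 94 lay above 0. By itself TC32 had 44 of the 94 higher and SKNMC 15 (2.56% and 3.44% of all genes), with none lower in either (0 and 0). Without the high 28S arrays 24 were higher in the difference, and without SKNMC NU7441 replicate 1 there were 17. With the other scalings the median difference stood at 0.32 and 0.34, and 1 and 2 genes were called.

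SNORA12 read 5.16, 4.995 and 5.19 in TC32 with vehicle and 9.24, 9.40 and 8.16 with NU7441, and 6.62, 6.39 and 6.28 in SKNMC with vehicle and 7.72, 7.81 and 8.05 with NU7441. Both lines rose without overlap, TC32 by 3.82 and SKNMC by 1.43, and the difference was 2.39 ± 0.35 (adjusted p = 0.00295). SCARNA18 rose from 5.10, 4.77 and 4.54 to 8.60, 8.46 and 6.75 in TC32 and stood at 0.91 in SKNMC, a difference of 2.22 ± 0.49 (adjusted p = 0.033) lost without any of 10 single arrays (1.89 to 2.82, adjusted p up to 0.0992). SCARNA14 and SCARNA16 differed by 1.82 and 1.60, with calls lost without any of 9 and 10 single arrays (adjusted p up to 0.0942 and 0.101).

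Among box C/D RNAs, which direct 2′-O-methylation, 1 of 94 was higher and 0 lower (1.32% and 0.526% of all genes). The median difference was 0.04, below 0 under the other scalings (-0.08 and -0.05). Without the high 28S arrays 14 were higher and 0 lower, and without SKNMC NU7441 replicate 1 there were 2 higher and 2 lower. With all arrays the 1 gene was SNORD13, which pairs with the ribosomal RNA precursor. It read 6.78, 7.19 and 6.46 in TC32 with vehicle and 10.60, 10.58 and 10.07 with NU7441, and 7.72, 7.60 and 7.43 in SKNMC with vehicle and 8.63, 9.22 and 9.47 with NU7441, a difference of 2.09 ± 0.32 (adjusted p = 0.00421). Of 13 spliceosomal small nuclear RNAs 0 were called in the difference, while 11 rose in TC32 and 8 in SKNMC (2.56% and 3.44% of all genes). The 28S signal itself had a difference of -0.25 (adjusted p = 0.971) with all arrays and 3.81 without the high 28S arrays, and its part in the rise of these non-polyadenylated RNAs was not tested.

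**Figure D5:**
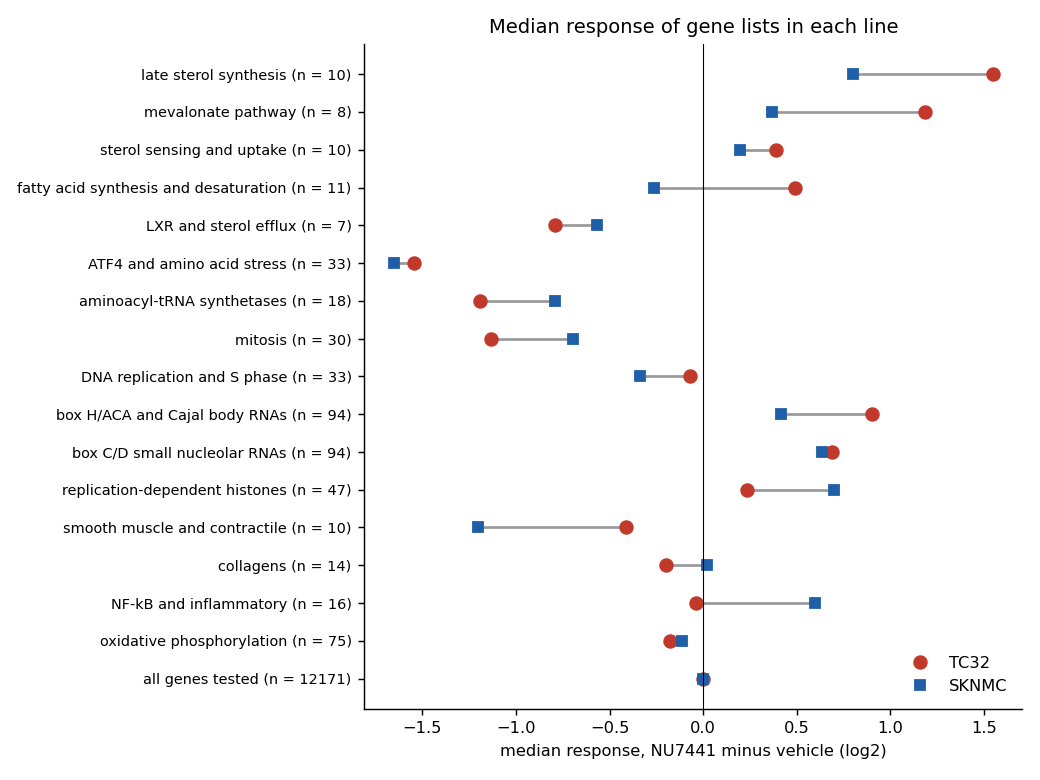
Median response to NU7441 (log2) over the measured genes of 16 lists and of all genes, with a circle for TC32 and a square for SKNMC and the number of measured genes beside each name. Late sterol synthesis lies at 1.55 and 0.80, box H/ACA and Cajal body RNAs at 0.90 and 0.41, mitosis at -1.13 and -0.70, and ATF4 targets at -1.55 and -1.65.

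With all arrays no mitosis gene passed the test of the difference. Of 30 measured genes 22 fell in TC32 and 6 in SKNMC (3.91% and 5.64% of all genes), and 0 were called in the difference (1.85%). The median difference was -0.51, and 1 of the 30 lay above 0. It stood at -0.78 without the high 28S arrays, where 11 were lower, and at -0.41 without SKNMC NU7441 replicate 1, where 0 were. Under the other scalings it stood at -0.87 and -0.84, and 4 were called lower under each. TOP2A, the topoisomerase of mitotic chromosomes, came nearest. It read 10.79, 11.09 and 10.52 in TC32 with vehicle and 9.27, 8.89 and 9.47 with NU7441, and 10.74, 10.78 and 10.96 in SKNMC with vehicle and 10.64, 10.12 and 10.13 with NU7441. Its difference of -1.06 ± 0.28 had an adjusted p of 0.0559. DNA replication genes had a median difference of 0.23, below 0 under the other scalings (-0.12 and -0.09), and 0 of 33 were called.

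Several lists had no called gene in the difference with all arrays, where 1.85% of all genes were called. Among 73 cytosolic ribosomal proteins, 75 oxidative phosphorylation genes, 33 proteasome genes and 18 aminoacyl-tRNA synthetases, 0 were called, with median differences of 0.00, -0.01, -0.04 and -0.05. Under each of the other scalings 3 synthetases and 2 ribosomal proteins were called lower, with a median of -0.44 and -0.41 for the synthetases. VARS1, the valine synthetase, had the largest difference among the synthetases at -0.93 (adjusted p = 0.186) and was called without the high 28S arrays (-1.31). Non-homologous end joining genes, the pathway of the drug's target, also had 0 of 8 called with all arrays and a median of -0.19, and 1 of the 8 was called lower in each refit. PRKDC itself read 7.83 to 8.04 and 7.40 to 7.75 in the TC32 groups and 7.82 to 7.99 and 7.59 to 7.92 in the SKNMC groups, with a difference of -0.18 ± 0.20 (adjusted p = 0.69). Among NRF2 antioxidant targets 0 of 14 were called with all arrays, 6 were called higher without SKNMC NU7441 replicate 1, and 2 were called lower without the high 28S arrays. NQO1, a quinone reductase, read 9.04, 5.36 and 5.54 on the SKNMC NU7441 arrays, so its difference of 2.40 ± 0.97 (adjusted p = 0.215) followed the split of those arrays and stood at -0.18 without replicates 2 and 3 and TC32 replicate 3.

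The genes of the tumour's fusion did not pass in the difference. EWSR1 was at 0.34 ± 0.19 (adjusted p = 0.382), FLI1 at -0.37 ± 0.23 (adjusted p = 0.445) and NKX2-2, a target of the fusion, at 0.84 ± 0.30 (adjusted p = 0.161). Of 34 measured genes that the fusion activates, 1 was called, where 1.85% of all genes were. It was UPP1, a uridine phosphorylase, which fell by 2.51 in SKNMC and stood at -0.85 in TC32 (difference 1.66 ± 0.31, adjusted p = 0.0112). UPP1 was not called under either of the other scalings, nor without background correction or with the submitters' own log2 values. With its detected probes averaged it was not called either. Of 20 measured genes that the fusion represses, 1 was called (1.85% of all genes), CDKN1A as above. Without SKNMC NU7441 replicate 1, 6 activated and 6 repressed genes were called higher and none lower. The median difference was 0.13 for activated and 0.47 for repressed genes with all arrays. It stood at -0.03 and -0.07 without the high 28S arrays, and at 0.29 and 0.64 without SKNMC NU7441 replicate 1. The controls ACTB and GAPDH stood at 0.73 (adjusted p = 0.282) and -0.16 (adjusted p = 0.719).

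Near the fold minimum of 1, the called genes DSC1, a desmosome cadherin, GRM8, a glutamate receptor, and TRIM49C lay at 1.01, 1.01 and 1.00, and NTRK2, a neurotrophin receptor, TESK2, a kinase, and INO80B, a chromatin remodelling subunit, at -1.0028, -1.0037 and -1.02. Each lost its call on leaving out any of at least 3 single arrays, and none was called without the high 28S arrays. STAMBPL1, a deubiquitinase whose gene lies beside ACTA2 on chromosome 10, and DPYSL3, a cytoskeletal protein of growth cones, were among the largest positive differences, at 2.69 ± 0.65 (adjusted p = 0.0452) and 2.30 ± 0.56 (adjusted p = 0.0457). STAMBPL1 read 8.26, 8.11 and 8.40 in SKNMC with vehicle and 6.53, 4.24 and 4.43 with NU7441, and DPYSL3 read 5.69, 6.07 and 5.11 in TC32 with vehicle and 8.57, 9.12 and 7.02 with NU7441. Both lost their calls on leaving out most single arrays, any of 9 for STAMBPL1 (2.28 to 3.43, adjusted p up to 0.117; 0.97 and not called without the high 28S arrays) and any of 10 for DPYSL3 (1.86 to 2.92, adjusted p up to 0.122).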

How the data were processed

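Total RNA from TC32 and SKNMC cells was hybridised to Illumina BeadChips, 12 arrays in 4 groups of 3. The deposited table gives, per its header, an unnormalized intensity and a detection p-value for each of 47319 probes on each array; GenomeStudio, lumi and R 3.0.2 appear in the submitters' processing notes, without a stated role. A second table, deposited by the submitters, holds log2 values that share 1 distribution over the 6 arrays of a line; how they were normalized is not stated, and this table was used as an alternative.

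Intensities were background-corrected by normexp with detection p-values, offset by 16, quantile-normalized and log2-transformed (neqc in limma 3.58.1, R 4.3.3). Probes with a detection p under 0.05 on at least 3 arrays were kept. GEO's platform annotation gave 1 symbol to 30112 probes, several to 8 and none to 17199, and 30073 symbols were looked up in current RefSeq tables. The brightest detected probe stood for a gene. A group-means model of all 12 arrays was fitted with lmFit and eBayes, and p-values were adjusted over 12171 genes by the Benjamini-Hochberg method. A call needs an adjusted p under 0.05 and a log2 difference of at least 1. On simulated data of 12171 genes with the design of the difference, 84% of genes changed by 1.5 on the log2 scale and 98% of those changed by 3 were recovered, with 6 false calls. These rates describe the simulated data only. With the measured arrays the count of calls ran from 98 to 778 on leaving out single arrays. The number of arrays limits the precision, and a group with no detected array gives a bound only.

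Named genes were the 12 most positive and 12 most negative called differences without overlap between array responses, up to 4 called genes of each list (with none called, the member with the largest difference), genes called in opposite directions, a few control genes, the 5 genes that varied most among the SKNMC NU7441 arrays, and the 3 called genes nearest the fold minimum on each side. The members and the 42 gene lists were chosen with earlier results of these data known. Some genes and 1 list of that set are not reported here.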

Additional observations from a re-analysis of the deposited data

Results flagged for a closer look

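The test of the difference between the lines picked out the results given next, each a TC32 response minus a SKNMC response on the log2 scale with all arrays; they are the 12 most positive and the 12 most negative calls. On the positive side these were MBD3L5 at 4.15, MBD3L3 at 3.25, MBD3L4 at 3.24, MBD3L2 at 3.21, BTBD17 at 2.88, ACTA2 at 2.85, STAMBPL1 at 2.69, TXNIP at 2.64, TRIM51 at 2.55, DHCR7 at 2.45, SNORA12 at 2.39 and DPYSL3 at 2.30. On the negative side they were COL7A1 at -3.06, DIRC3 at -1.98, H2BC21 at -1.95, ABCA1 at -1.91, SELENOP at -1.82, CXCL10 at -1.79, GDF15 at -1.78, COL3A1 at -1.78, PDE7B at -1.75, CEACAM1 at -1.72, CPEB2 at -1.71 and ECM1 at -1.70.

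Probes outside the gene-level test also held calls. Of 5313 detected probes with no single gene symbol, 48 were called in the difference when every detected probe was tested by itself, 32 higher and 16 lower in TC32. They are unnamed here.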

How the results depend on the processing

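The count of 225 genes called in the difference fell to 58 without background correction and to 58 with the deposited log2 table. ABCA1, GDF15, CEACAM1, SLC1A4, DCN, ELOVL6, DNAJB9 and UPP1 were among those that lost the call under both, with their signs kept. With the detected probes of a gene averaged, MSMO1, ACAT2, ELOVL6, DCN, UPP1 and CCNG2 were among those that lost it, with their signs kept. The count was 73 with a detection p under 0.01 on all 12 arrays, 144 with no detection filter and 119 with detection on all 3 arrays of a group in each line. It rose to 444 with the 28S signal as a covariate, to 945 with array weights, to 384 without the arrays of high 28S signal and to 902 without those of lower 28S signal, and was 101 without SKNMC NU7441 replicates 2 and 3. Leaving out 1 array gave 98 (SKNMC vehicle replicate 2) to 778 (SKNMC NU7441 replicate 1), with 457 without TC32 NU7441 replicate 3, 235 without TC32 vehicle replicate 3 and 98 to 144 for the 9 others, SKNMC vehicle replicate 2 among them. The cause of these shifts was not tested. The remaining alternatives gave 189 to 317 calls.

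For the responses by themselves, the TC32 count of 788 moved to 1406 with no normalization between arrays, 1306 with median scaling, 248 without background correction, 251 with the deposited table, 3082 with no fold minimum and 1287 without the arrays of lower 28S signal. The SKNMC count of 1105 moved to 361 without background correction, 349 with the deposited table, 728 with the stricter detection filter, 614 with the 28S covariate, 3885 with no fold minimum, 630 without the arrays of high 28S signal and 557 without SKNMC NU7441 replicates 2 and 3. Without the arrays of high 28S signal TGFBI turned to -1.22, CRYAB to -1.10 and RNA28SN5 to 3.81, none of them called with all arrays.

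Same-numbered samples of different groups had deviations that correlated at -0.13 to 0.15, over 0.1 in 1 of 18 pairs, so the numbers were not taken to pair the samples; a replicate block gave 190 calls. Of 66 named genes called, 35 kept the call without any single array and 31 lost it at least once; over 1987 combinations of gene and alternative, 1514 kept the call, 473 lost it and 0 turned sign. The gene counts over 3 fits, list medians under other scalings and sets of genes picked by their levels on the SKNMC NU7441 arrays were chosen after seeing the data.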

Other observations

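A second set, also chosen after the values were seen, took genes absent from TC32 and high on SKNMC NU7441 replicates 2 and 3. NCKAP1L and CACNA1H were not detected on any TC32 array and read at a log2 of at least 8 on SKNMC NU7441 replicates 2 and 3. Their median was 7.92 on replicate 1, 8.74 on replicate 2 and 8.87 on replicate 3. Both were detected on replicate 1 and on every SKNMC vehicle array, so they do not split the arrays as the 8 genes did. NCKAP1L read 8.51, 8.94 and 8.92 on the SKNMC NU7441 arrays and 8.89, 8.55 and 8.62 with vehicle. CACNA1H read 7.34, 8.54 and 8.83 against 6.88, 6.71 and 6.69. Without SKNMC NU7441 replicate 1 the test of the difference called 1 of these 2 genes.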
